A study of Mus musculus with 15 samples.

Results

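The genes described here are the axon guidance ligands and receptors: semaphorins with plexin and neuropilin receptors, ephrins with Eph receptors, Slits with Robo receptors, and netrins with Unc5 receptors. Members were taken by gene symbol alone, from the name stems of these 9 families, and 63 of the 17271 genes in the expression table matched. They are 20 semaphorins, 10 plexin symbols, 2 neuropilins, 8 ephrins, 11 Eph receptors, 3 Slits, 3 Robos, 3 netrins and 3 Unc5 receptors. One plexin symbol, Plxna4os1, is a noncoding RNA transcribed opposite to Plxna4, so 62 members are receptor or ligand genes. No measured value entered this rule, although earlier results of these data were known when the members were chosen.

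RNA was sequenced from 15 mouse mammary tumour samples of 4 models. The 2208L model gave 8 of them, 2151R gave 4, 2225L gave 2, and T11 is a single sample. Every tumour was p53-null on the BALB/c background, so the groups share the loss of p53 and there is no p53 wild-type control. Titles split 2208L into 4 samples marked PBS (replicates 2 to 5), 3 marked 3day nt (replicates 6 to 8) and 1 marked only ROSEN (replicate 1), and they mark replicates 3 and 4 of 2151R as NT2 and NT. The titles of 2151R replicates 1 and 2 carry other marks (2151R-5310 and 2151R-53ca), so that group is not uniform in its labels. One 2225L sample (replicate 1) is marked T-Vivo and the other ROSEN. The labels give neither the age of the animals, nor whether samples came from separate animals, nor what nt, NT and the marks of 2151R stand for, so a p-value below measures the spread between these samples, which may be technical.

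Semaphorins, ephrins, Slits and netrins are cues that steer growing axons, and most act by binding receptors that reorganise the actin cytoskeleton of the receiving cell. The same cues act outside the nervous system: in mammary gland and tumours they are known for roles in duct formation, cell sorting, migration and the growth of vessels. Secreted class 3 semaphorins mostly signal through a neuropilin paired with a plexin, whereas ephrins are held on the cell surface and meet Eph receptor tyrosine kinases by cell contact.

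Upstream sequence is shown for 4 members whose values set the models apart. Sema3d, Sema3a and Sema3e are neighbours on chromosome 5 that differed between 2151R and 2208L in opposite directions, and Epha1 is the Eph receptor with the largest difference. Each run is the 250 bases before a RefSeq transcript start in GRCm38.p6, read 5′ to 3′ on the gene's strand, in lower case with an E-box in capitals. The E-box searched is CACCTG, the form bound by ZEB and Snail family repressors. On the opposite strand it reads as CAGGTG, and both were counted. The Sema3d window lies at chr5:12382916-12383165 (plus strand), the Sema3a window at chr5:13396534-13396783 (plus strand, at a start inside the annotated gene), the Sema3e window at chr5:14025026-14025275 (plus strand) and the Epha1 window at chr6:42373269-42373518 (minus strand). The reference is not BALB/c sequence.
Sema3d: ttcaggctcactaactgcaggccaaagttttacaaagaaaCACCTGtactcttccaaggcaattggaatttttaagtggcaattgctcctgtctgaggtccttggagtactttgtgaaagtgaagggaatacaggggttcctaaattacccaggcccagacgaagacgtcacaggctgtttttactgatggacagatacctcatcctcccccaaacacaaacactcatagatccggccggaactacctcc
Sema3a: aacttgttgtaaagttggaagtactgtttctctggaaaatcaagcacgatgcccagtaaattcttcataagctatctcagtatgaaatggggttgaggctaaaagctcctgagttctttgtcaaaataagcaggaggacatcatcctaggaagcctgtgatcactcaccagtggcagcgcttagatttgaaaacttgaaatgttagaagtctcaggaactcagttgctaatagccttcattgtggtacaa
Sema3e: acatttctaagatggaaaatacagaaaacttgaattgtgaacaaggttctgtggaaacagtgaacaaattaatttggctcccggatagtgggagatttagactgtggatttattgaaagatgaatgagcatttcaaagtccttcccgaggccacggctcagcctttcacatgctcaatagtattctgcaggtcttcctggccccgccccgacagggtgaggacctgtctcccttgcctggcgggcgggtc
Epha1: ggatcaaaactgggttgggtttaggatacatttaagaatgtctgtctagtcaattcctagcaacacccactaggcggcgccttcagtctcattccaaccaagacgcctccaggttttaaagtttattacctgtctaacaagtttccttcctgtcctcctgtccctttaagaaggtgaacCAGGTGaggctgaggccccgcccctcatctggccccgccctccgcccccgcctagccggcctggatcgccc

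Promoters were found for 54 of the 63 members, as 70 windows, and 9 members had none in the table used. The E-box was present in 9 of these 70 windows (12.9%), beside 5657 of 32851 windows of the same length over all genes (17.2%). Among windows of members that were higher in 2151R than in 2208L, 3 of 21 held it, against 4 of 29 for members that were lower and 2 of 20 for members without a call. A match describes letters in the window and shows no binding, and several windows belong to the same gene.

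The values are log2 expression, centred for each gene on an unstated level, so samples can be compared within a gene, and genes cannot be ranked by level. A difference of 1 on this scale is a factor of 2 where the unstated offset is small beside the expression. Trp53 read 0.094 to 0.29 in 2151R, -0.0055 in T11, 1.63 and -0.18 in 2225L, and -0.29 to 0.16 in 2208L, and since centring removes its level this does not test the genotype. The mean of 10 epithelial marker genes was -3.01 to -1.91 in 2151R, -7.16 in T11, 3.33 to 3.34 in 2225L and 0.65 to 2.19 in 2208L, so the defining markers of the labelled tissue were lowest in T11 and 2151R. The 10 mesenchymal markers averaged 0.68 to 1.20, 1.72, -1.50 to -1.36 and -1.06 to 0.039 in the same order. Skeletal muscle genes were high in 3 libraries, replicate 3 of 2151R (4.69) and replicates 6 and 8 of 2208L (8.86 and 8.31). Library numbers in the titles form separate blocks for 2151R, for the PBS samples and for the 3day nt samples, so effects of a block and of a model or subset cannot be told apart.

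**Figure D1:**
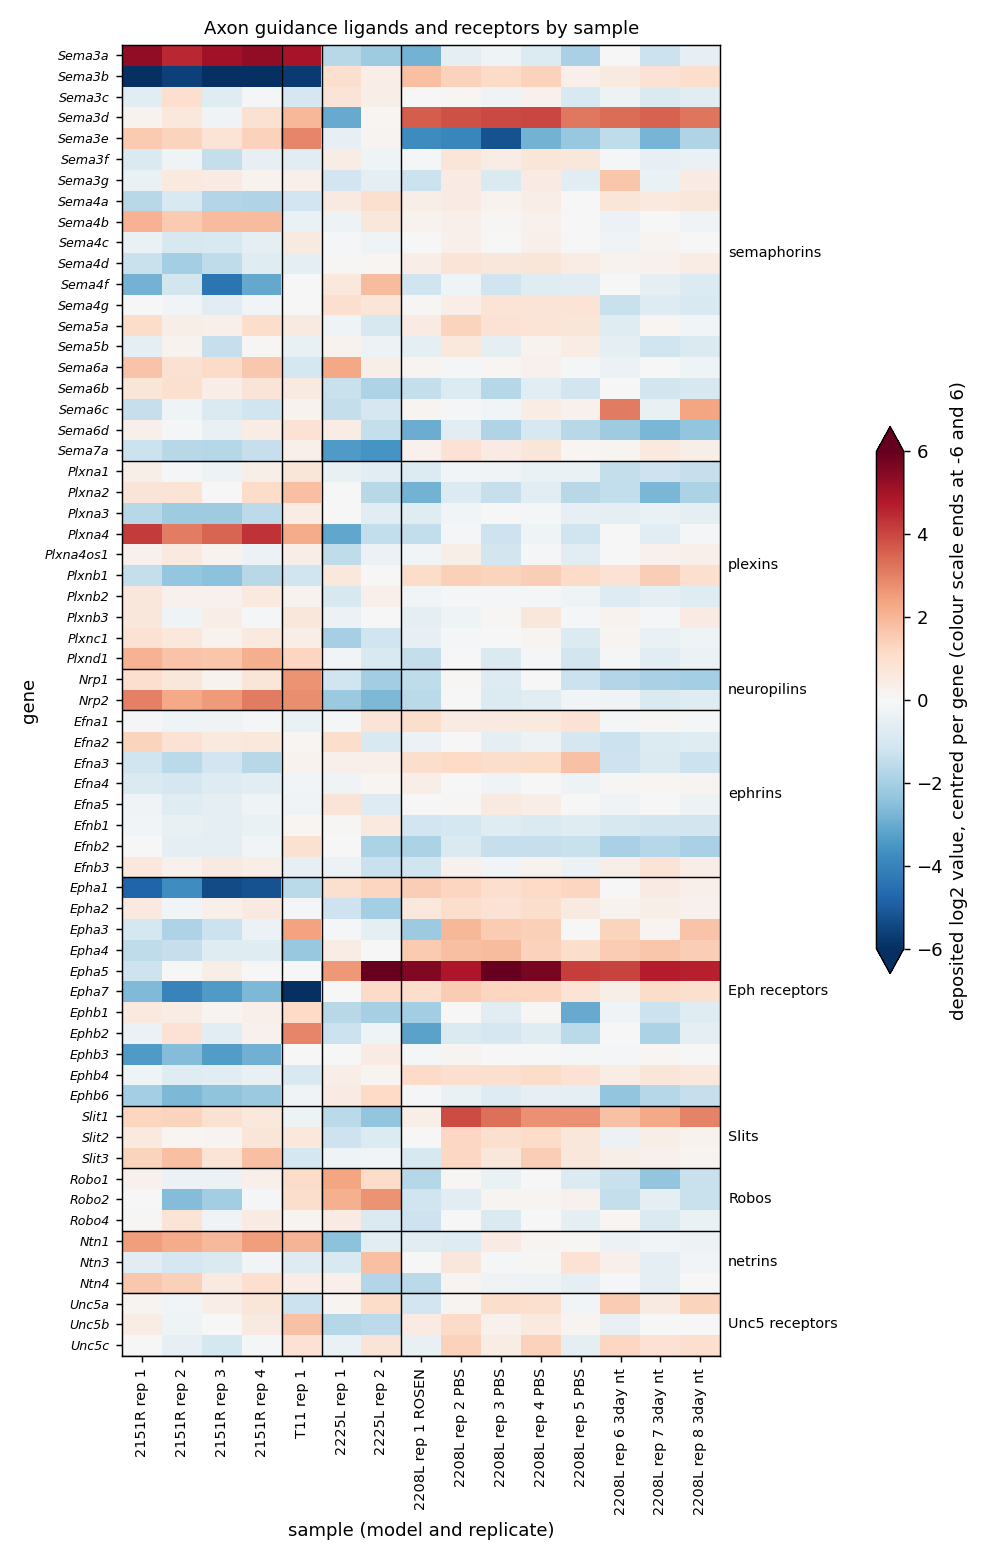
Deposited log2 value of each of the 63 members (vertical axis, grouped by family) in each of the 15 samples (horizontal axis, grouped by model). Red is above and blue below the centring level of the gene, and the colour scale ends at -6 and 6. Sema3a, Plxna4 and Nrp2 are red in 2151R and T11, where Sema3b is blue.

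The first comparison was that of 2151R with 2208L. Of the 63 members, 21 were higher and 23 were lower in 2151R at a limma adjusted p-value under 0.05, which is 69.8% beside 48.8% of all genes. Over all genes 26.1% were called higher and 22.7% lower. The groups did not overlap at 35 members (38.8% of all genes). The median difference was -0.12 over members and 0.10 over all genes, and the median size of the difference was 1.37 and 0.68. By family, 6 of 20 semaphorins rose and 9 fell, 6 of 10 plexin symbols rose and 2 fell, and both neuropilins rose. Of 11 Eph receptors 8 fell and 1 rose, while 3 of 8 ephrins rose and 2 fell. In bulk tumour RNA, fewer cells of a type and less RNA per cell cannot be told apart. Beside these counts, all 10 epithelial markers were called (8 lower and 2 higher in 2151R), 5 of 10 mesenchymal markers were higher and 1 lower, and 7 of 10 endothelial and 7 of 10 macrophage markers were higher with 1 lower on each list. Fibroblast markers had 3 of 10 higher and T cell markers 2 of 10, with none lower on either list. Of 9 Schwann cell and nerve markers 1 was higher and 3 were lower, and no skeletal muscle marker was called. Adipocyte markers had 3 of 10 higher and none lower, with a median difference of 3.97 and means of 0.91 to 3.95 in 2151R and -4.13 to 2.09 in 2208L. The part of these cell types in the result was not tested.

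Among the secreted class 3 semaphorins, Sema3a and Sema3e were higher in 2151R and Sema3b and Sema3d were lower. Sema3a, which repels axons through neuropilin 1 and a class A plexin, stood at 5.34, 4.54, 5.06 and 5.32 in 2151R and at -2.85 to 0 (median -0.70) in 2208L. The difference was 6.09 (SE 0.46, adjusted p = 1.6e-07 in limma), and each 2151R sample lay above all 8 of 2208L. Sema3e, which binds plexin D1 without a neuropilin, read 1.57, 1.34, 0.83 and 1.40 against -5.22 to -1.53 (median -2.82), a difference of 4.30 (SE 0.57). Sema3b, a secreted semaphorin described as a tumour suppressor, went the opposite way, at -6.11, -5.59, -6.21 and -6.32 in 2151R and 0.32 to 1.80 (median 1.10) in 2208L. Its difference of -7.12 (SE 0.26, adjusted p = 1.5e-10 in limma) had the greatest size among the 63 members. Sema3d read 0.21, 0.65, -0.19 and 0.92 against 3.17 to 4.02 (median 3.58), a difference of -3.19 (SE 0.44). None of these 4 genes overlapped between the models, and their adjusted p-values in limma ran from 1.5e-10 to 5.1e-05. Sema3f, a neuropilin 2 ligand, fell by less (-0.96) with overlapping groups, and that call was lost without 2151R replicate 1 or 3 (-0.92 and -0.73). Sema3c and Sema3g, at differences of 0.22 and 0.24, did not pass the test.

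Membrane-bound semaphorins held calls in both directions. Of class 4, Sema4b was higher in 2151R (2.07, 1.59, 1.90 and 1.88, against -0.37 to 0.28 (median 0.059) in 2208L), a difference of 1.83 (SE 0.19). Sema4d, the ligand of plexin B1, was lower (-1.32, -2.04, -1.52 and -0.75, against 0.22 to 0.79 (median 0.44)), a difference of -1.90 (SE 0.20). Sema4a and Sema4c, at -1.96 and -0.78, were also lower without overlap, and Sema4f was lower at -2.17 with values of -2.85, -1.11, -4.40 and -3.05 that overlapped 2208L (-1.20 to -0.025 (median -0.68)). Of class 6, Sema6a (1.39), Sema6b (1.67) and Sema6d (1.98) were higher. Sema6d, a ligand of plexin A1, read 0.31, -0.087, -0.43 and 0.45 in 2151R and -2.97 to -0.68 (median -1.96) in 2208L, so that all 4 samples lay above the 8. Sema6c was lower at -1.63, a value that 2 libraries of 2208L enlarged: it read 3.14 and 2.39 in replicates 6 and 8, which are high in muscle genes, and at most 0.43 in the other 6. Leaving out the muscle-high libraries of both models gave -0.96, which passed the test (adjusted p = 0.02 in limma). In the fits that left out 1 library the call was lost without 2151R replicate 1, 3 or 4 or 2208L replicate 4 or 8 (-1.67 to -1.39). Sema7a, a semaphorin tethered to the membrane by a lipid anchor, stood at -1.31, -1.68, -1.70 and -1.38 against 0.14 to 0.84 (median 0.42), a difference of -1.96 (SE 0.16). Adjusted p-values in limma over the called members of classes 4, 6 and 7 ran from 3.7e-07 to 0.042, and neither class 5 member was called.

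Plexins and neuropilins, the semaphorin receptors, were mostly higher in 2151R. Plxna4, a class A plexin that pairs with neuropilin 1, read 4.20, 3.07, 3.51 and 4.36 in 2151R and -1.48 to 0 (median -0.45) in 2208L, a difference of 4.42 (SE 0.38, adjusted p = 6.9e-07 in limma). Plxnd1, the receptor of Sema3e on endothelium and other cells, read 2.08, 1.73, 1.68 and 2.20 against -1.43 to 0 (median -0.51), a difference of 2.49 (SE 0.28). For Plxna2 the values were 0.78, 0.81, -0.0012 and 1.09 and -2.85 to -0.69 (median -1.57), a difference of 2.36 (SE 0.44). Nrp2 and Nrp1, the co-receptors that also bind vascular endothelial growth factor, rose by 3.37 (SE 0.28) and 1.82 (SE 0.41). Nrp2 stood at 3.04, 2.25, 2.56 and 3.10 in 2151R and -1.62 to 0 (median -0.70) in 2208L. Nrp1 stood at 1.0, 0.69, 0.22 and 0.72 and -2.03 to 0.050 (median -1.40), so for both neuropilins and for these 3 plexins every 2151R sample lay above every 2208L sample. Another pair of plexins were lower. Plxnb1, the Sema4d receptor, read -1.42, -2.31, -2.45 and -1.66 against 0.85 to 1.48 (median 1.25), a difference of -3.18 (SE 0.21), and Plxna3 differed by -1.51 (SE 0.19). Plxna1, Plxnb2 and Plxnc1 were higher by less than 1 log2 unit (0.83, 0.78 and 0.79), and the call of Plxna1 was lost without 2151R replicate 1 or 4 (0.73 and 0.74). Over the 10 called plexins and neuropilins the limma adjusted p-values ran from 5.3e-08 to 0.022. Exons of 15 members, among them Plxna4, Plxnb1, Plxnc1, Nrp1, Plxna1, Efna3, Efna4, Epha1, Ephb1, Ephb4, Sema4a and Sema4c, overlap another annotated gene, and whether counting used strand is not given in the sources used here, so their values may hold reads of that neighbour. Plxna4os1 lies within the span of Plxna4 without sharing exons and differed by 0.31 (SE 0.30), which did not pass the test (limma adjusted p = 0.42).

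**Figure D2:**
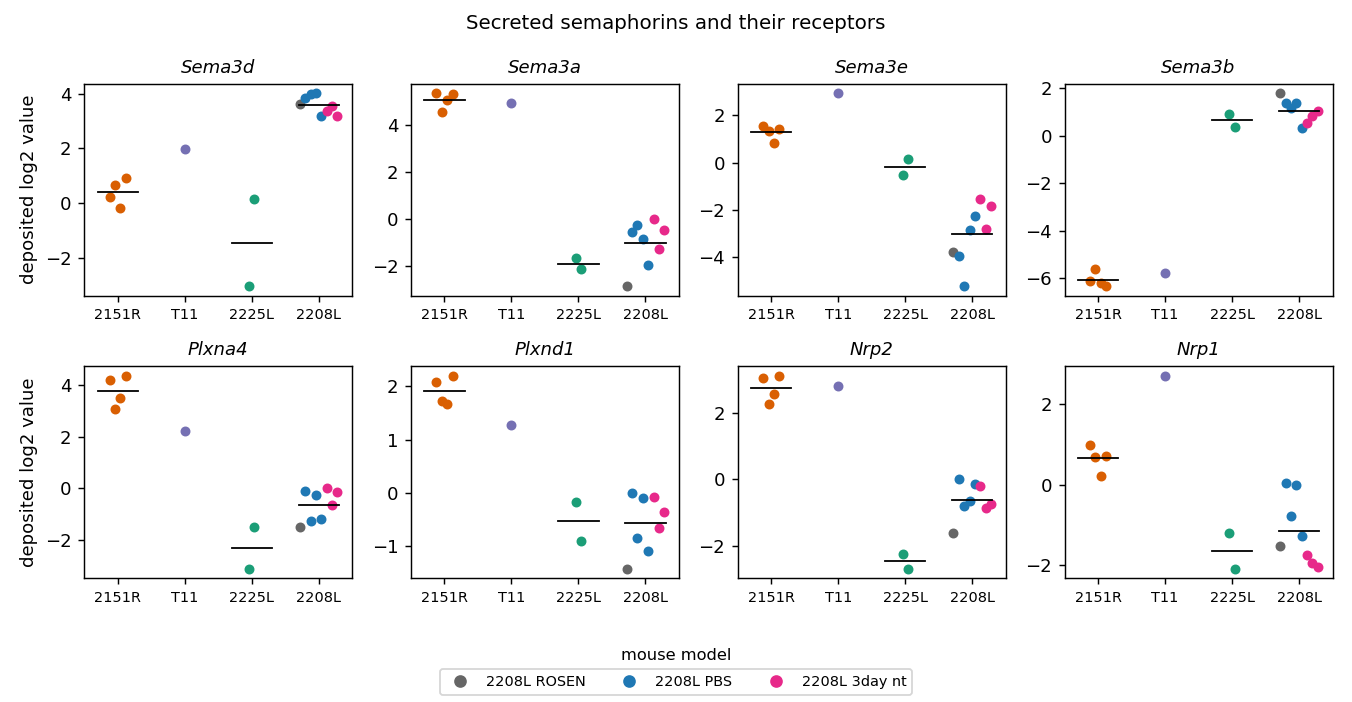
Deposited log2 values (vertical axes, 1 scale per gene) of 4 secreted semaphorins and 4 of their receptors in each sample of the 4 models (horizontal axes). Points are samples, black lines are means of models with more than 1 sample, and in 2208L grey, blue and pink mark the ROSEN, PBS and 3day nt samples. All 2151R points of Sema3a, Sema3e, Plxna4, Plxnd1, Nrp2 and Nrp1 lie above, and all of Sema3b and Sema3d below, every 2208L point.

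Eph receptors were mostly lower in 2151R, and the largest differences were of class A. Epha1 stood at -4.79, -3.73, -5.39 and -5.21 in 2151R and at 0 to 1.47 (median 1.09) in 2208L. The difference was -5.66 (SE 0.34, adjusted p = 1.7e-08 in limma), with no overlap. Epha7 read -2.64, -4.02, -3.39 and -2.67 against 0.37 to 1.54 (median 1.06), a difference of -4.23 (SE 0.30). Epha5 read -1.25, 0, 0.36 and 0 against 4.06 to 6.20 (median 4.79), a difference of -5.21 (SE 0.73), but its value is exactly 0 in 2151R replicates 2 and 4 and in T11, a repeat whose meaning is not given in the sources used here. Epha4, which binds ephrins of both classes, was lower at -2.64. Among class B receptors Ephb3 read -3.41, -2.60, -3.35 and -2.87 against -0.084 to 0.19 (median 0.014), a difference of -3.07 (SE 0.16). Ephb4, the receptor of ephrin B2 known from vein development, was lower at -1.37 and Ephb6, which lacks kinase activity, at -1.37 with overlapping groups. Epha3 was also called lower (-1.88), with a spread in 2208L of -2.18 to 1.98 (median 1.37), and that call was lost without 2151R replicate 1, 2 or 3 (-1.91 to -1.64). Only Ephb1 was called higher among the 11, at 0.57, 0.43, 0.16 and 0.29 against -3.02 to 0.059 (median -0.68), a difference of 1.35 (SE 0.50, adjusted p = 0.038 in limma). Its call was lost without any 1 of the 4 2151R libraries or without 2208L replicate 1 or 7 (1.20 to 1.42). Epha2 and Ephb2, at -0.29 and 1.28, did not pass (limma adjusted p = 0.31 and 0.052).

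Of the 8 ephrins, the ligands of these receptors, 5 were called. Efna2 was higher (1.32, 0.87, 0.61 and 0.65, against -1.28 to 0 (median -0.64) in 2208L), by 1.49 (SE 0.33). Efnb2, the ligand of Ephb4, was higher (-0.016, -0.57, -0.56 and -0.18, against -1.95 to -0.87 (median -1.56)), by 1.23 (SE 0.31). Efnb1 was higher by 0.58 (SE 0.14). For Ephb4 and Efnb2 the receptor was thus lower and the ligand higher in 2151R, each without overlap between the groups. Efna4 was lower, at -0.86, -1.0, -0.79 and -0.70 against -0.31 to 0.41 (median 0.029), a difference of -0.86 (SE 0.15). Efna3 was called lower at -1.76 (SE 0.57) while the groups overlapped. The 3day nt replicates 6 and 8 of 2208L (-1.24 and -1.31) lay within the range of 2151R (-1.22, -1.63, -1.16 and -1.67). Replicate 7 (-0.86) lay above that range. The Efna3 call was lost without 2151R replicate 2 or 4 (-1.69 and -1.68). Limma adjusted p-values of the 5 called ephrins ran from 0.00028 to 0.022, and Efna1 missed the threshold at 0.05 with a difference of -0.60. 

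**Figure D3:**
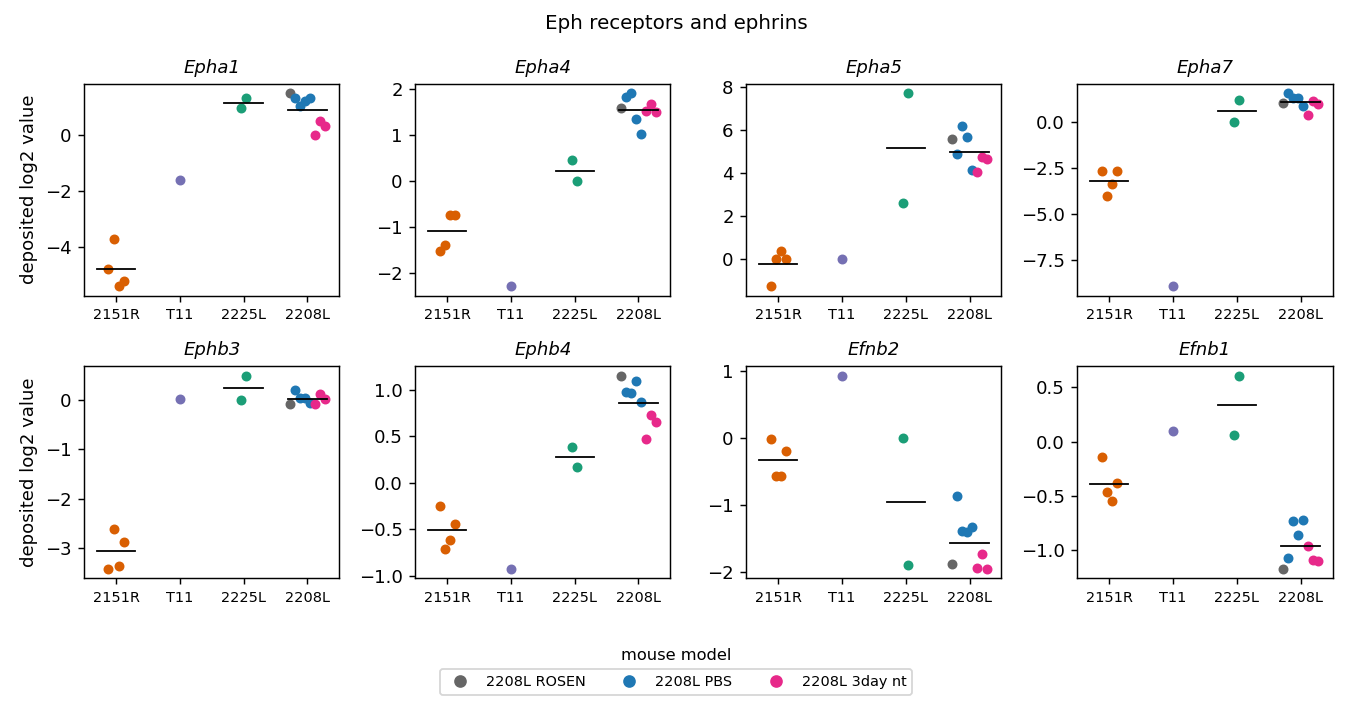
Deposited log2 values (vertical axes, 1 scale per gene) of 6 Eph receptors and 2 ephrins in each sample of the 4 models (horizontal axes). Points are samples, black lines are means of models with more than 1 sample, and in 2208L grey, blue and pink mark the ROSEN, PBS and 3day nt samples. The 2151R points lie below all 2208L points for each of the 6 receptors and above them for Efnb2 and Efnb1.

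Of the 3 netrins 2 rose, while Slit, Robo and Unc5 members gave few calls. Ntn1, the secreted netrin that binds DCC and Unc5 receptors, stood at 2.52, 2.22, 1.94 and 2.52 in 2151R and -0.78 to 0.49 (median -0.23) in 2208L, a difference of 2.49 (SE 0.32, adjusted p = 2.4e-05 in limma). Ntn4, a netrin of basement membranes, read 1.64, 1.45, 0.56 and 0.99 against -1.61 to 0.17 (median -0.26), a difference of 1.56 (SE 0.39). Slit1 was called lower (-1.46), Slit3 higher (0.96) and Unc5c lower (-1.09), each with overlapping groups. All 3 calls depended on single libraries: Slit1 lost its call without 2151R replicate 1, 3 or 4 (-1.54 to -1.33), Slit3 without 2151R replicate 1, 2 or 4 or 2208L replicate 3, 5, 6, 7 or 8 (0.84 to 0.99) and Unc5c without 2151R replicate 1, 2, 3 or 4 or 2208L replicate 2, 3, 4, 6, 7 or 8 (-1.23 to -0.88). No Robo was called: Robo1, a receptor of Slits, differed by 0.96 (SE 0.44), Robo2 by -0.61 (SE 0.52) and the endothelial Robo4 by 0.77 (SE 0.32).

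Choices of samples other than single libraries also ended calls of 2151R against 2208L. With only the NT2 and NT samples of 2151R, 15 of the 44 were lost: Efna2 (1.25), Efna3 (-1.76), Efnb1 (0.50), Efnb2 (1.19), Epha3 (-1.57), Ephb1 (1.21), Ephb6 (-1.36), Ntn4 (1.18), Plxna1 (0.77), Plxnb2 (0.75), Plxnc1 (0.60), Sema6c (-1.74), Slit1 (-1.72), Slit3 (0.83) and Unc5c (-1.26). Against the PBS samples of 2208L alone, those of Efnb2 (0.91), Ephb1 (1.26), Plxna1 (0.37), Plxnb2 (0.58), Slit3 (0.42) and Unc5c (-1.08) were lost, and Nrp1 kept its call at 1.16. Against the 3day nt samples alone those of Efna3 (-0.28), Ephb6 (-0.53) and Sema3f (-0.43) were lost, whereas against PBS Efna3 differed by -2.69. Leaving out the muscle-high libraries ended the calls of Epha3 (-1.56), Ephb1 (1.58), Slit1 (-1.47), Slit3 (1.09) and Unc5c (-0.73). Quantile normalization ended those of Ephb6 (-0.89) and Slit3 (0.88), and Ephb1 was also lost with the library prefix as a covariate (1.24). Sema3a, Sema3b, Sema3d, Sema3e, Plxna4, Nrp2, Epha1 and Epha7 passed in every one of these fits.

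Beyond the 63 members, 82 of 90 listed partners and downstream genes of these pathways were in the table, and 24 were higher, 21 lower and 37 not called, with a median difference of 0.17 beside 0.10 over all genes. Of 12 netrin, DCC and RGM partners 4 were higher and 2 lower, of 27 semaphorin co-receptors and effectors 6 and 7, of 21 Slit and Robo effectors 6 and 7, and of 22 Eph and ephrin effectors 8 and 5. Flrt2, a ligand of Unc5 receptors, was higher by 4.01 (SE 0.56) and Draxin, a secreted repellent that binds DCC, by 3.62 (SE 0.63). Timd2, reported as a Sema4a receptor, was lower at -7.46 (SE 0.32), and Chl1, an adhesion molecule of the L1 family, at -3.27 (SE 0.46). Gpc1, a glypican that binds Slits, was higher by 2.53 (SE 0.25). These genes are among those with the largest differences on the lists and were picked after their values were seen.

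The comparison of 2225L with 2208L rests on 2 samples of 2225L. Here 7 members were higher and 13 lower in 2225L, which is 31.7% beside 32.9% of all genes (15.6% higher and 17.3% lower), a share near the background. Groups did not overlap at 22 members (31.7% of all genes). The median difference was -0.092 over members and -0.044 over all genes, with median sizes of 0.71 and 0.63. The 2 samples of 2225L differed from each other by at least 1 log2 unit at 22 of 63 members (34.9%, and 34.1% of all genes). The widest gap was at Epha5, which read 2.61 and 7.69. Macrophage markers moved beside these calls, with 6 of 10 lower and a mean of -1.89 to -0.90 in 2225L against -0.42 to 0.28 in 2208L. Mesenchymal markers had 6 of 10 lower and 1 higher. Of 9 Schwann cell and nerve markers 3 were higher and 1 was lower, and of 10 epithelial markers 3 were higher and none lower. The part of these cell types in the result was not tested.

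Among semaphorins, Slits and Robos the called differences went in both directions. Sema3d read -3.04 and 0.13 in 2225L against 3.17 to 4.02 (median 3.58) in 2208L, a difference of -5.05 (SE 0.57, adjusted p = 2.8e-05 in limma). Sema3e was higher (-0.51 and 0.14, against -5.22 to -1.53 (median -2.82)), by 2.84 (SE 0.73), so that it was lowest in 2208L among the 4 models. Sema7a stood at -3.41 and -3.55 against 0.14 to 0.84 (median 0.42), a difference of -3.92 (SE 0.21, adjusted p = 4e-08 in limma). Sema4f and Sema6a were higher, at 0.65 and 1.92 and 2.32 and 0.37, with differences of 1.96 (SE 0.61) and 1.38 (SE 0.37). Slit1, a secreted ligand of Robo receptors, read -1.60 and -2.37 against 0.39 to 3.90 (median 2.73), a difference of -4.49 (SE 0.65, adjusted p = 0.0002 in limma), and Slit2 differed by -1.54 (SE 0.37). The receptors went the other way. Robo1 stood at 2.36 and 1.09 in 2225L and -2.38 to 0.087 (median -1.07) in 2208L, a difference of 2.72 (SE 0.56). Robo2 stood at 2.12 and 2.71 and -1.45 to 0.24 (median -0.65), a difference of 3.01 (SE 0.67). Slit1 and Slit2 were therefore lower and Robo1 and Robo2 higher in 2225L, each without overlap, with limma adjusted p-values of 0.0002 to 0.0067. With weights estimated for each sample, the calls of Robo1 (2.24), Robo2 (2.68) and Slit2 (-1.88) were lost (limma adjusted p of 0.062 to 0.22).

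Of the remaining receptors, most calls were lower in 2225L. Plxnc1, the Sema7a receptor, was lower at -1.39 (SE 0.28) (-2.0 and -1.21 in 2225L), so that this ligand and receptor fell together. Nrp2 was lower at -1.84 (SE 0.36) (-2.24 and -2.69), Plxna4 at -1.67 (SE 0.50) (-3.11 and -1.49) and Plxnb1 at -0.91 (SE 0.28) (0.63 and 0). Epha2, a receptor of ephrin A1 described in many carcinomas, read -1.22 and -2.04 against 0.21 to 1.07 (median 0.59), a difference of -2.25 (SE 0.29, adjusted p = 8.2e-05 in limma). Epha4 and Ephb4 were lower at -1.32 (SE 0.26) and -0.59 (SE 0.19). Ephb6 was higher (0.47 and 1.20, against -2.35 to -0.10 (median -0.66)) by 1.81 (SE 0.48), and Efnb1 was the single ephrin called, at 1.30 (SE 0.19). Unc5b, a netrin receptor, was lower at -1.91 (SE 0.33) (-1.69 and -1.55), and Ntn1 at -1.35 (SE 0.41) with overlapping groups (-2.45 and -0.62). Limma adjusted p-values of these receptor and netrin calls ran from 8.2e-05 to 0.034.

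Many of these calls depended on 1 of the 2 libraries of 2225L: leaving out a single library ended 10 of the 20. Without replicate 1 the calls of Sema6a (0.40), Robo1 (2.08), Slit2 (-1.34), Plxna4 (-0.86), Ntn1 (-0.44) and Ephb4 (-0.69) were lost. Without replicate 2 those of Sema3e (2.51), Sema4f (1.33), Plxnb1 (-0.60), Ephb6 (1.45) and Ephb4 (-0.48) were lost, and Ephb4 was also lost without 2208L replicate 2, 3 or 4. In these fits the lone 2225L sample is assumed to vary like the other groups. Sample weights ended 13 of the 20 calls, the Slit and Robo calls given above and those of Epha4 (-1.40), Ephb4 (-0.68), Ephb6 (1.59), Nrp2 (-1.87), Ntn1 (-1.50), Plxna4 (-1.70), Plxnb1 (-1.04), Sema3e (3.40), Sema4f (2.03) and Sema6a (1.28). Against the 3day nt samples of 2208L alone, those of Ephb4 (-0.34), Ntn1 (-1.27), Plxnb1 (-0.79), Sema4f (1.76) and Sema6a (1.54) were lost and Sema3e differed by 1.87, and against PBS alone that of Sema4f (1.99). Quantile normalization ended Ntn1 (-1.05) and Plxna4 (-1.35).

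Among the 82 other pathway genes, 13 were higher and 22 lower in 2225L than in 2208L, with a median difference of -0.33 beside -0.044 over all genes. Met, a receptor tyrosine kinase that associates with B plexins, was lower at -6.06 (SE 0.39), and Timd2 at -7.46 (SE 0.42). Timd2 had the same difference, to the digits shown, in the earlier comparison with 2208L. Whether a shared lowest value set the size of both differences was not tested. Dpysl5, of the family of collapsin response mediators that act downstream of Sema3a, was higher by 6.63 (SE 0.56), and Gpc1 by 4.11 (SE 0.33). These 4 were picked after their values were seen.

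**Figure D4:**
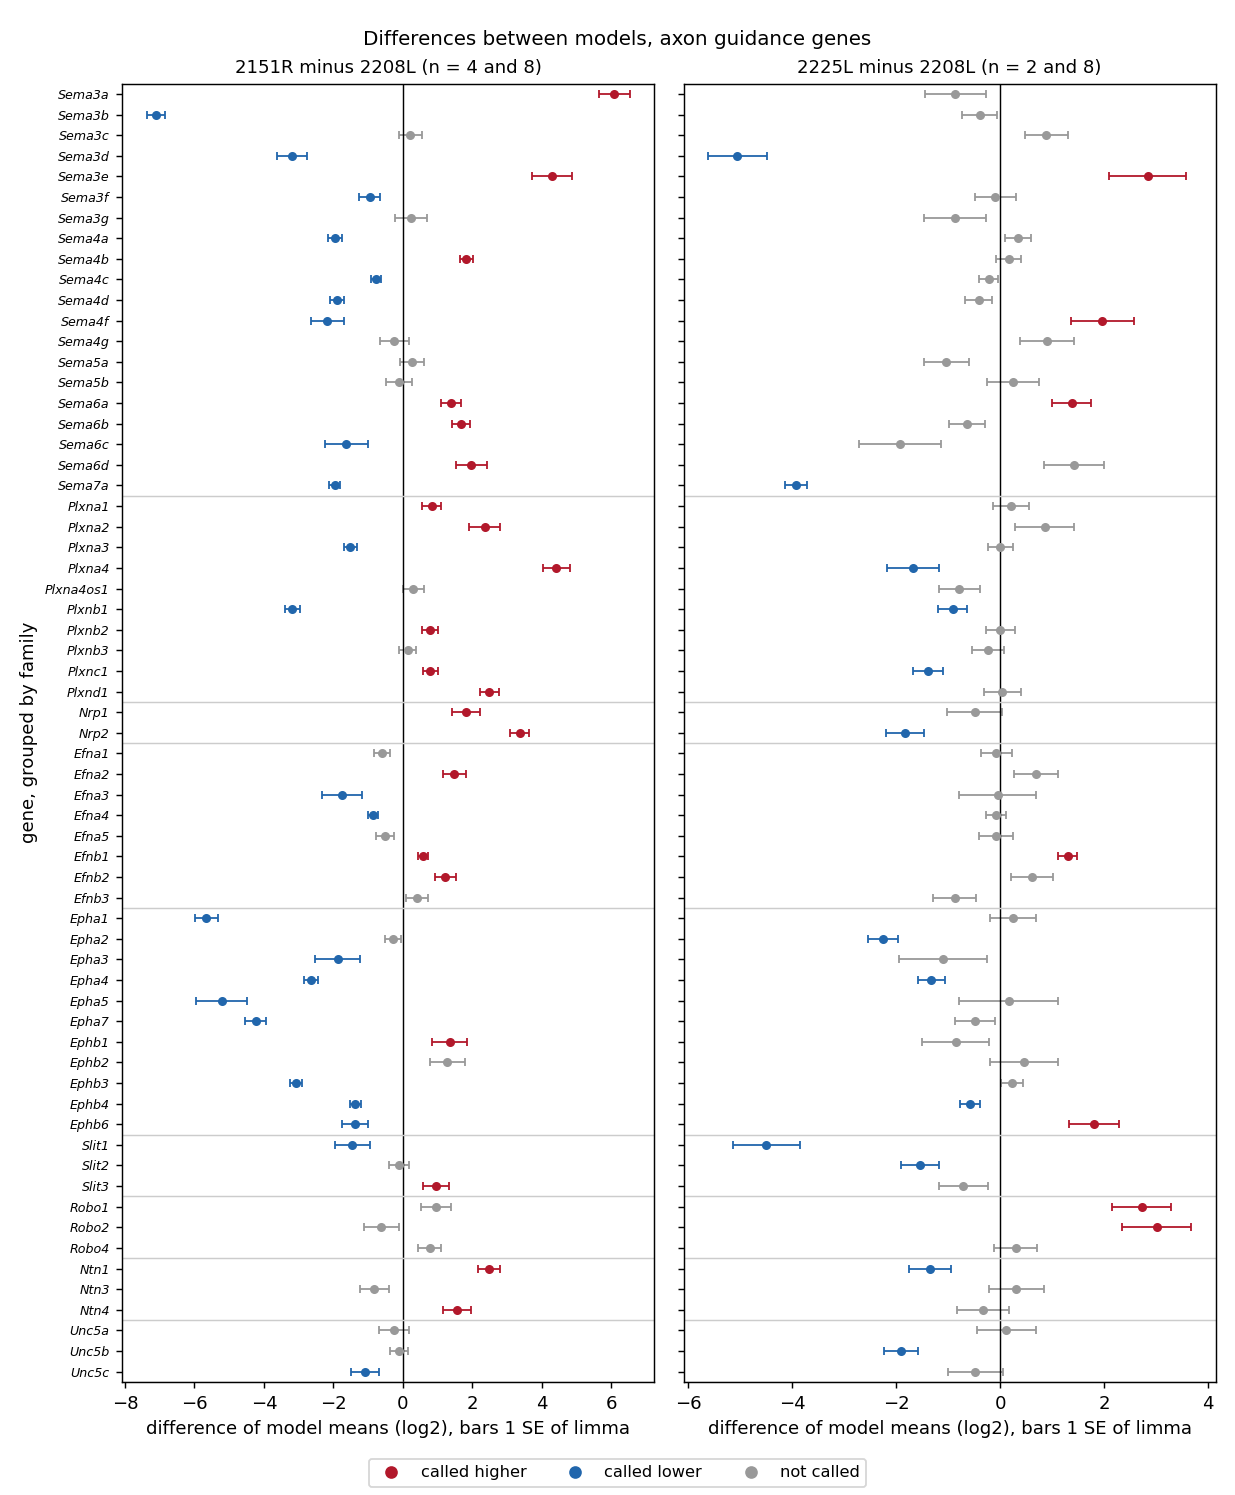
Differences of model means (horizontal axes, log2) for the 63 members (vertical axis, grouped by family), for 2151R minus 2208L (left, n = 4 and 8) and 2225L minus 2208L (right, n = 2 and 8). Bars are 1 standard error of the limma fit, and colour marks members called higher, lower or not called. Both panels use the same 8 samples of 2208L, and the left panel has 44 calls and the right panel 20.

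The comparison of 2225L with 2151R uses samples that the comparisons above share, so its values are not independent of them. Here 18 members were higher and 21 lower in 2225L, which is 61.9% beside 48.6% of all genes (22.8% higher and 25.8% lower). The median difference was -0.37 over members and -0.10 over all genes, and the median sizes were 1.49 and 0.93. Groups did not overlap at 45 members, beside 62.4% of all genes. Beside these counts, 9 of 10 epithelial markers were higher and 8 of 10 mesenchymal and 9 of 10 macrophage markers were lower in 2225L, with 1 mesenchymal marker higher. Fibroblast markers had 3 of 10 lower and adipocyte markers 2 of 10. Of 9 Schwann cell and nerve markers 2 were higher and none lower. The part of these cell types in the result was not tested. Sema3a read -1.67 and -2.11 in 2225L and 5.34, 4.54, 5.06 and 5.32 in 2151R, a difference of -6.96 (SE 0.64, adjusted p = 1.8e-06 in limma). Of its receptors, Plxna4 was lower at -6.09 (SE 0.54) and Nrp1 at -2.30 (SE 0.58). Among the other class A plexins, Plxna3 was higher and Plxna1 and Plxna2 were not called. Nrp2 was lower at -5.20 (SE 0.40). Sema3b was higher, at 0.94 and 0.40 in 2225L, a difference of 6.73 (SE 0.37). Sema3e, whose values did not overlap, did not pass the test, at -1.47 (SE 0.81) (limma adjusted p = 0.15). Several members, Nrp2 and Plxna4 among them, were called in all 3 comparisons of models that have replicates. Sema7a was another of these, with means of 0.44 in 2208L, -1.52 in 2151R and -3.48 in 2225L. Slit1 was ordered the same way, at 2.51, 1.05 and -1.98, although its 2151R and 2208L values overlapped.

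Of the 11 Eph receptors, 7 were higher and 2 lower in 2225L than in 2151R. Epha1 read 0.96 and 1.29 against -4.79, -3.73, -5.39 and -5.21, a difference of 5.90 (SE 0.48, adjusted p = 5.6e-07 in limma). Epha7 (3.75 (SE 0.42)), Ephb3 (3.30 (SE 0.23)) and Ephb6 (3.18 (SE 0.53)) were higher as well, and Epha5 was higher by 5.37 (SE 1.04), a value that became 2.83 without 2225L replicate 2. Epha2 and Ephb1 were lower, at -1.96 (SE 0.32) and -2.21 (SE 0.70). All 3 Slits were lower (-3.03, -1.42 and -1.66 for Slit1, Slit2 and Slit3), and Robo2 and Robo1 were higher (3.62 and 1.76). Ntn1 and Ntn4 were lower, at -3.83 (SE 0.45) and -1.89 (SE 0.55), and so was Unc5b at -1.80 (SE 0.37). Plxnd1 (-2.46), Plxnc1 (-2.17) and Sema6b (-2.30) were lower, and Sema4f (4.14), Sema4a (2.29), Plxnb1 (2.27) and Plxna3 (1.52) higher. Of the ephrins, Efna4 (0.79) and Efnb1 (0.72) were higher and Efnb3 (-1.28) was lower. The limma adjusted p-values of the receptors and ligands named since Epha1 ran from 1.2e-07 to 0.031.

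Leaving out 1 library ended 14 of these 39 calls. Without 2225L replicate 1 these were Plxna4os1 (-0.51), Ephb4 (0.68), Robo1 (1.12), Slit2 (-1.22) and Sema3d (-0.27), and without 2225L replicate 2 Efna4 (0.62), Efnb1 (0.45), Efnb3 (-0.78), Nrp1 (-1.86), Ntn4 (-0.85) and Sema5a (-0.96). Ephb1, Slit3 and Sema4c were lost without either (-2.37 and -2.04 for Ephb1, -1.64 and -1.69 for Slit3, 0.48 and 0.64 for Sema4c). Among 2151R libraries, replicate 1 decided Efnb3, Plxna4os1 and Sema5a (-1.22, -1.07 and -1.17 without it), and replicate 2 decided Robo1, Plxna4os1, Sema3d and Sema4c (1.66, -0.96, -1.77 and 0.47). Replicate 3 of 2151R decided Efnb3, Robo1, Plxna4os1 and Sema4c (-1.26, 1.65, -1.08 and 0.49), and replicate 4 decided Sema3d and Sema5a (-1.68 and -1.18). Sample weights ended 17 of the 39, 14 of them also lost without a single library, and beyond those Robo2 (3.05), Epha4 (1.19) and Sema4d (1.19); with the library prefix as a covariate Efnb3 (-0.65), Ephb1, Sema5a and Slit3 were lost and Ntn4 differed by -1.08. Across the 3 comparisons of replicated models, 52 of the 63 members were called at least once. The 11 never called were Efna1, Efna5, Ephb2, Ntn3, Plxnb3, Robo4, Sema3c, Sema3g, Sema4g, Sema5b and Unc5a.

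T11 is a single sample, so its values have no replicate check and are given without a test. It lay at least 1 log2 unit above the 2208L mean at 19 members and below it at 14, together 52.4% of the 63 beside 38.5% of all genes (22.9% above and 15.6% below). Against the 2151R mean the same count was 28 (44.4%, beside 25.5%, of which 15% above and 10.5% below), and against the 2225L mean 42 (66.7%, beside 51.3%, of which 30% above and 21.3% below). Sema3a in T11 (4.93) and Sema3b (-5.75) lay inside the range of 2151R. Sema3e (2.93) and Nrp1 (2.71) lay above all 14 other samples, and Nrp2 (2.81) inside the range of 2151R. Plxna4 (2.21) and Plxnd1 (1.27) lay above 2208L and below 2151R. Eph receptors in T11 lay both below and above the other samples. Epha7 read -8.89 in T11, -9.95 from the 2208L mean and the lowest of the 15 samples, and Epha4 (-2.28) and Ephb4 (-0.93) were also the lowest of the 15. Ephb2 (2.91) and Epha3 (2.40) were the highest of the 15. Ephb3 (0.013) lay in the range of 2208L, where 2151R was low, and Epha1 (-1.63) lay between the ranges of 2151R and 2208L. Unc5b (1.74), Efnb2 (0.93) and Plxna3 (0.45) were also above every other sample, and Slit3 (-1.06), Sema6a (-1.06) and Unc5a (-1.28) below every other one. T11 had the lowest means of the epithelial markers (-7.16) and of the Schwann cell and nerve markers (-2.26). Its mean of the mesenchymal markers (1.72) was the highest, and the part of these cell types in these values was not tested.

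By the order of the 4 model values, T11 was highest at 18 members, 2208L at 16, 2151R at 15 and 2225L at 14. The lowest value was that of 2225L at 21 members, 2151R at 19, 2208L at 12 and T11 at 11. No such order was counted over all genes, so these counts do not set the members apart. Neighbours in such an order can differ by less than the spread within a model, and T11 has no spread to compare. For Sema3a the order was 2151R (5.07 ± 0.37 SD, n = 4), T11 (4.93), 2208L (-1.03 ± 0.96, n = 8) and 2225L (-1.89 ± 0.32, n = 2), and the last 2 overlapped. For Sema3e it was T11 (2.93), 2151R (1.28 ± 0.32), 2225L (-0.18 ± 0.46) and 2208L (-3.02 ± 1.23). For Ntn1 it was 2151R (2.30 ± 0.28), T11 (2.05), 2208L (-0.19 ± 0.43) and 2225L (-1.54 ± 1.29).

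Members also varied within 2208L. Between the 4 PBS and 3 3day nt samples, 19 members were higher in PBS and 0 lower by limma, which is 30.2% beside 34% of all genes. Over all genes the calls were balanced, with 17.4% higher and 16.5% lower. At an unadjusted limma p under 0.05, 24 members were higher and 2 lower (38.1% and 3.2%), beside 23.0% and 24.1% of all genes. The median difference was 0.31 over members and -0.047 over all genes. All 4 PBS samples lay above all 3 3day nt samples at 20 members and below them at 3. The subsets thus did not overlap at 23 of the 63 members, beside 44.8% of all genes. Replicates 6 and 8 of 3day nt are the libraries high in muscle genes. In both of these, 16 members were lower than in the other 6 libraries of 2208L, and 6 were higher. These 2 counts were not made over all genes, so they are not read as a result about the members. Without replicate 6 alone 9 members were called higher, without replicate 8 alone 7, without replicate 2 alone 11 and without replicate 4 alone 12. Without replicates 6 and 8 together, which leaves 1 sample of 3day nt, 0 were called higher and 98 of all genes were called, so the loss of the calls says little of the members, and the differences are given instead. They were 2.14 for Efna3, 1.48 for Sema4g, 2.09 for Robo1, 1.44 for Nrp1 and 0.71 for Epha1, beside 2.41, 1.70, 1.39, 1.41 and 0.93 with all 7 samples. Of the other called members, the difference became smaller for Ephb6 (1.14), Plxna1 (0.94), Sema5a (0.80), Slit2 (0.62) and Robo2 (0.57). It was also smaller for Efna1 (0.55), Epha2 (0.52), Efnb2 (0.48), Plxnb2 (0.37) and Ephb4 (0.25). It became larger for Sema6d (1.44), Sema5b (1.38), Sema3f (1.16) and Slit3 (0.78). Other marker lists moved as well: in PBS 3 of 10 T cell markers were lower (means of -1.83 to 0.23 in PBS and 0.27 to 1.07 in 3day nt), 2 of 10 adipocyte markers (-4.13 to 1.53 and 1.22 to 2.09) and 2 of 10 epithelial markers (0.65 to 1.31 and 1.42 to 2.19), and 3 mesenchymal markers were higher with 1 lower. Of 9 Schwann cell and nerve markers 2 were higher in PBS and none lower. The part of these cell types and of the library range in the differences was not tested.

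Ligands and receptors of several families were among those higher in PBS. Efna3, an ephrin of class A, read 1.21, 1.04, 1.08 and 1.77 in PBS and -1.24, -0.86 and -1.31 in 3day nt. The difference was 2.41 (SE 0.22, adjusted p = 0.0021 in limma), and the ROSEN sample, at 1.06, lay with PBS. Efna1 read 0.47, 0.53, 0.59 and 0.85 against -0.10, 0.058 and -0.084, a difference of 0.65 (SE 0.13), whereas Efna4, the third of these neighbouring genes on chromosome 3, differed by -0.27 (SE 0.12) and was not called. Sema4g read 0.40, 0.81, 0.77 and 0.81 against -1.32, -0.78 and -0.90, a difference of 1.70 (SE 0.18, adjusted p = 0.0029 in limma). Nrp1 read 0.050, -0.79, 0 and -1.28 against -1.75, -1.94 and -2.03, a difference of 1.41 (SE 0.34), and its call was lost without replicate 2, 6 or 8 (1.22 to 1.49). Robo1 read 0.087, -0.39, -0.042 and -0.83 against -1.32, -2.38 and -1.36, a difference of 1.39 (SE 0.34), and its call was lost without replicate 2, 3, 4 or 8 (1.27 to 1.56). Plxna1 (1.04 (SE 0.11)), Sema5a (1.18 (SE 0.24)), Ephb6 (1.25 (SE 0.23)), Epha1 (0.93 (SE 0.15)) and Sema3f (0.99 (SE 0.14)) kept their calls whichever single library was left out. The other called members were Efnb2, Epha2, Ephb4, Plxnb2, Robo2, Sema5b, Sema6d, Slit2 and Slit3, with differences of 0.36 to 1.13, and each of these and Efna1 lost its call without at least 1 library. Limma adjusted p-values of the 19 ran from 0.0021 to 0.05. Several members with large differences between models did not pass here: Sema3a differed by -0.31 (SE 0.47), Sema3b by 0.26 (SE 0.29), Plxna4 by -0.45 (SE 0.35) and Epha7 by 0.42 (SE 0.24), whereas Epha1 passed.

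**Figure D5:**
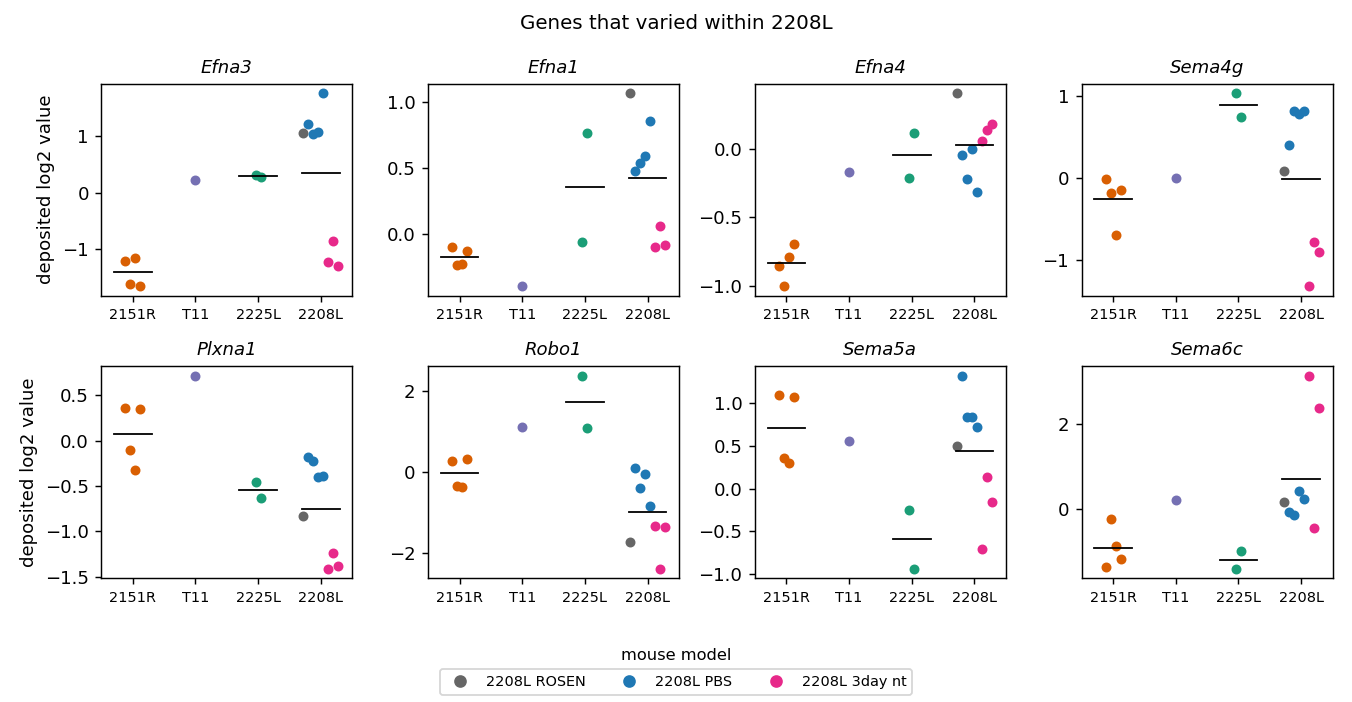
Deposited log2 values (vertical axes, 1 scale per gene) of 8 members that varied within 2208L or neighbour one that did, in each sample of the 4 models (horizontal axes). Points are samples, black lines are means of models with more than 1 sample, and in 2208L grey, blue and pink mark the ROSEN, PBS and 3day nt samples. For Efna3, Efna1, Sema4g and Plxna1 the 4 blue points lie above the 3 pink ones, and for Sema6c 2 pink points, replicates 6 and 8, stand above all others.

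Several members are neighbours on a chromosome, and neighbours did not always move together. On chromosome 5 in GRCm38, Sema3d (chr5:12383385-12588948), Sema3a (chr5:13125414-13602565) and Sema3e (chr5:14025276-14256689) follow each other on the plus strand with gaps of 0.536 and 0.423 Mb. In 2151R against 2208L they differed by -3.19, 6.09 and 4.30, and in 2225L against 2208L by -5.05, -0.86 and 2.84, where the Sema3a value did not pass the test. Sema3b and Sema3f lie 0.0723 Mb apart on chromosome 9 and differed by -7.12 and -0.96 in 2151R against 2208L. Efna1, Efna3 and Efna4 lie within a cluster on chromosome 3 with gaps of 0.0328 and 0.0104 Mb, and differed by -0.60, -1.76 and -0.86 in that comparison, of which the first was not called. Robo1 and Robo2, 0.846 Mb apart on chromosome 16, were both higher in 2225L than in 2208L, and Ephb6 and Epha1, 0.738 Mb apart on chromosome 6, were both lower in 2151R than in 2208L.

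The spread of members within a model limits what these comparisons can show. The median SD of members was 0.37 in 2151R and 0.52 in 2208L, beside 0.24 and 0.41 over all genes. Within 2151R it ran from 0.068 (Efna1) to 1.35 (Sema4f), and within 2208L from 0.10 (Ephb3) to 1.38 (Epha3). Of the 8 samples of 2208L, replicate 6, a muscle-high library, was the lowest at 21 members (33.3%, and 18.3% of all genes) and the ROSEN sample at 18 (28.6%, and 22.1% of all genes). Within 2151R, the muscle-high replicate 3 was the lowest of the 4 at 28 members (44.4%, and 28.8% of all genes) and replicate 2 at 25 (39.7%, and 37.2% of all genes).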

How the data were processed

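Tumour RNA was isolated with a Qiagen RNeasy kit and sequenced from poly(A)-selected TruSeq libraries, per the labels' protocols. The submitters' processing notes name STAR and Salmon, without versions, and the mouse build mm10. The deposited table holds the authors' log2 values, centred per gene, of 17271 genes in 15 samples, with no missing value and a range of -14.55 to 13.11. The centring level and the offset before the logarithm are not given in the sources used here, and 1124 genes (6.51%) have a median of exactly 0. In 727 genes, of the members only Epha5, at least 2 samples hold the same value. The table holds no counts, so depth is unknown and precision rests on the spread between samples. The series text writes 2151R and 2225L as 215R and 225L, and titles were followed. The values were fitted as deposited with limma 3.58.1 in R 4.3.3 (lmFit, eBayes; 1 mean per model over all 15 samples, and a separate fit of 7 samples for PBS against 3day nt), tested on simulated data first. P-values were adjusted by Benjamini-Hochberg over all 17271 genes, and genes under 0.05 are called, with no minimum difference; rose and fell, or higher and lower, refer to such calls. No filter on low values was used, so all 63 members were tested. T11 (n = 1) was given as values, and at least 1 log2 unit from a model mean was counted. Named with values are, for each family and model comparison, up to 3 called members in each direction with the largest difference and no overlap, and up to 4 in each direction for the subsets; members named beyond these complete a family or a ligand and receptor pair and were chosen after their values were seen. The members and all lists were chosen with earlier results of these data known. Positions are from GENCODE M21 (GRCm38) and promoters from RefSeq (GRCm38.p6), matched by symbol. Alternatives were scaling, quantile normalization, trend and robust moderation, sample weights, filters, a minimum difference, single libraries or muscle-high libraries left out, fits of 2 models alone, subsets by title, and the library prefix (CP or ROSEN) as a covariate.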

Additional observations from a re-analysis of the deposited data

Results flagged for a closer look

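Values of the 41 members named by rule were searched for a sample far from the rest of its group, in 2151R, in 2208L and in the PBS samples of 2208L. This made 123 groups, and 5 held such a sample, beside 6.15 that unselected and separate groups would give at about 1 in 20. These members were named for a call without overlap, and the PBS samples are part of 2208L, so 6.15 is only a rough guide. Efnb2 was highest in replicate 2 among the 4 PBS samples of 2208L, at -0.87, with the others between -1.40 and -1.33. Ntn4 was lowest in replicate 1 among the 8 samples of 2208L, at -1.61, with the others between -0.59 and 0.17. Robo2 was lowest in replicate 2 among the 4 PBS samples of 2208L, at -0.70, with the others between 0.14 and 0.24. Sema4a was highest in replicate 2 among the 4 samples of 2151R, at -0.91, with the others between -1.80 and -1.65. Sema4g was lowest in replicate 2 among the 4 PBS samples of 2208L, at 0.40, with the others between 0.77 and 0.81. 3 of the 5 are replicate 2 of the PBS samples.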

How the results depend on the processing

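No member called in a comparison changed direction under any alternative run. Setting the minimum difference aside, 28 of 44 calls of 2151R against 2208L passed under every alternative, 7 of 20 of 2225L against 2208L, 22 of 39 of 2225L against 2151R and 0 of 19 of PBS against 3day nt. With only the NT samples of 2151R, 12 members were higher than in 2208L in place of 21, and 5561 genes were called in place of 8434. With sample weights, 1 member was higher and 6 lower in 2225L than in 2208L, and 10 higher and 12 lower than in 2151R, with 2158 and 5252 genes called in place of 5687 and 8398. The same weights gave 33 members higher and 6 lower in PBS than in 3day nt and 11692 genes called in place of 5864. Centring samples on their medians gave 1 member lower there, leaving out both muscle-high libraries 0 higher with 98 genes called, and a minimum of 1 log2 unit 10 higher. That minimum left 5151 and 2208 genes called in 2151R against 2208L and in PBS against 3day nt. Leaving out 1 library at a time gave 7 to 23 members higher and 0 to 1 lower in PBS with 2379 to 6800 genes called, 18 to 22 and 18 to 23 in 2151R against 2208L, 7 to 8 and 10 to 15 in 2225L against 2208L, and 16 to 18 and 16 to 20 in 2225L against 2151R. The counts of T11 past 1 log2 unit from the 2208L mean stayed within 1.5 times under both scalings. Those against the 2151R and 2225L means were not rerun. The cause of these changes was not tested. No paired analysis was possible because replicates were numbered in order of deposit and the titles pair no samples between models. Depth is unknown, so how far low counts limit single members cannot be given.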
